A study of Mus musculus with 10 samples.

Results

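The cell cycle and mitosis genes described here are 41 mouse genes, fixed by symbol, that copy DNA, drive entry into division or carry it out, and their rows were found through Ensembl identifiers in the GENCODE annotation of GRCm39. They make up 41 of the 78298 rows of the count table. By role, 16 belong to G1 and S phase and 25 to G2 and mitosis. They lie on 16 chromosomes, and 0 lie on chromosome 17, which carries the deleted gene. Transcripts were counted by bulk RNA sequencing of hearts from female C57BL/6J mice, 5 of them wild type by their labels and 5 germline knockouts for p38δ. Mapk13 encodes p38δ, a protein kinase that responds to stress, and a germline knockout removes it from every cell type, not from heart muscle alone. Every mouse of both groups had received doxorubicin, an anthracycline cancer drug that poisons topoisomerase II and damages heart muscle, as 1 dose of 30 mg/kg into the peritoneum, and hearts were taken 72 h later. No untreated heart was analysed here, so the comparison is of genotypes after the drug, and the age of the mice is not given in the sources used here.

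A cell enters the cycle when cyclins D and E and their kinases release E2F transcription factors from the retinoblastoma proteins, and E2F then switches on genes for origin licensing and nucleotide supply. Later, the MuvB complex with B-Myb and FoxM1 switches on cyclin B, Cdk1 and the genes of the spindle and of cytokinesis, through an element called CHR and nearby CCAAT boxes. The p53 target p21, encoded by Cdkn1a, inhibits the cyclin-dependent kinases and turns the same promoters off through the DREAM complex. In the adult heart, cardiomyocytes have mostly left the cell cycle, and fibroblasts, endothelial cells and immune cells can still divide. In bulk hearts, fewer dividing cells and less RNA per cell cannot be told apart.

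Because the members are known to be switched in these phases by such elements, promoters of 5 members on which the results turn are shown first. Each runs from 270 bases before to 30 bases from the start of the Ensembl canonical transcript, in GRCm39, 5′ to 3′ on the strand of the gene. Cdk1, the kinase of mitotic entry, lies on the minus strand (chr10:69188739-69189038), and Ube2c, the ubiquitin carrier of the anaphase-promoting complex, lies on the plus strand (chr2:164611548-164611847). Mcm6, a subunit of the replicative helicase, lies on the minus strand (chr1:128287423-128287722) and stands for the G1 and S phase members. Cenpf, a kinetochore protein, lies on the minus strand (chr1:189420283-189420582), and Cenpa, the centromeric histone H3, on the plus strand (chr5:30823851-30824150). Cenpf and Cenpa are shown because they were highest in another library than most mitosis members. Capitals mark matches on either strand to CHR (TTTGAA), to CCAAT, or to the E2F motifs GCGGGAA and TTTGGCGC.
Cdk1: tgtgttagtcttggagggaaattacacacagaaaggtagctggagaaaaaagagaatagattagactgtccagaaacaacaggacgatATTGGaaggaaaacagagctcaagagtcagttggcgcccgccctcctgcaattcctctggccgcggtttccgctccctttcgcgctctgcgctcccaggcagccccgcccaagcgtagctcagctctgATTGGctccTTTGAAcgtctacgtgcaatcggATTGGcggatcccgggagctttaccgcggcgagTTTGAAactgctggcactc
Ube2c: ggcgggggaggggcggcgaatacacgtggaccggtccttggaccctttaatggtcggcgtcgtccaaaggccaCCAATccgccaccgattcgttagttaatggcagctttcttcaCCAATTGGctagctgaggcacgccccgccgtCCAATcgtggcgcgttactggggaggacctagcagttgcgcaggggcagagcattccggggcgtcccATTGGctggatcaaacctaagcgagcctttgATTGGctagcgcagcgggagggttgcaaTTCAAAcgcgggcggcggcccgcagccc
Mcm6: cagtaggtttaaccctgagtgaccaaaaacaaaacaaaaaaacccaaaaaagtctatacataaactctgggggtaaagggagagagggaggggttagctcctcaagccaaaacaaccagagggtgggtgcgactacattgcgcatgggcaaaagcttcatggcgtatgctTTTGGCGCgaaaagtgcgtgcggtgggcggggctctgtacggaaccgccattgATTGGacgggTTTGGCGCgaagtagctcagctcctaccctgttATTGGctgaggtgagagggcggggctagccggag
Cenpf: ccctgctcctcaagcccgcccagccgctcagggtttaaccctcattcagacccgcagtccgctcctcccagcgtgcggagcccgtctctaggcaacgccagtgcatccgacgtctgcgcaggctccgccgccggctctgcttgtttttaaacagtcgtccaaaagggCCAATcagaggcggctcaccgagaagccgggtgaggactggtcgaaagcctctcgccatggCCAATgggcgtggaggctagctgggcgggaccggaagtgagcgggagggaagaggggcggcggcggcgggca
Cenpa: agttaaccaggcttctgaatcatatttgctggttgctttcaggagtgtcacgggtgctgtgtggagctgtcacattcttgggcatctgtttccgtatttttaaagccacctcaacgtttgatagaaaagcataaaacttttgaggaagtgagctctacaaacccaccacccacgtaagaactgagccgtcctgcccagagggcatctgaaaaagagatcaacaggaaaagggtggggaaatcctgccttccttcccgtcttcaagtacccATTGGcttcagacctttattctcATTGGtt

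Cdk1 held CHR matches that begin at -45 and 12 relative to the first base of the transcript, beside CCAAT matches at -182, -54 and -22. Ube2c held 1 CHR match at 3 and 6 CCAAT matches, of which those at -155 and -152 overlap each other. Mcm6 held TTTGGCGC at -100 and -37, CCAAT matches at -47 and -4, and no CHR match. Cenpf and Cenpa held only CCAAT matches, at -103 and -42 in Cenpf and at 1 and 24 in Cenpa. Over the 41 members, CHR was matched in 13 promoters (31.7%, against 18% of 21756 promoters of protein-coding genes of the same length), in 11 of 25 mitosis members and in 2 of 16 G1 and S phase members. CCAAT was matched in 28 of 41 (68.3%, against 40.3% of all), in 18 of 25 mitosis members and in 10 of 16 G1 and S phase members. Either E2F motif was matched in 8 of 41 (19.5%, against 5.91% of all), all 8 among the 16 G1 and S phase members. These are letter matches and say nothing on binding in these hearts.

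Facts of the libraries that touch the results come next. Library totals ranged from 21403189 to 40627138 counts. Mapk13 held 292, 5, 2, 1 and 4 counts in wild-type-labelled libraries 1 to 5 and 12, 10, 10, 15 and 9 in knockout-labelled libraries 1 to 5, so it does not separate the groups the way the labels would, and libraries are named by their labels throughout. Which part of Mapk13 was deleted is not given in the sources used here. Its log2 fold change was -1.76 (standard error 1.23, edgeR adjusted p = 0.78), and 2.13 without wild-type-labelled library 1 (adjusted p = 0.0443). That library also stood apart in its share of mitochondrially encoded counts, 22.95% against 28.3% to 30.9% in the other 9, and in markers of other tissues given below. Sample titles follow a different pattern in the 2 groups, and a cohort that went with them cannot be told apart from genotype. Genotype differences over all genes were few, with 59 of 16700 tested genes past an adjusted p of 0.05.

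None of the cell cycle members differed between the genotypes by the test. Of the 41 members, 27 had enough counts to be tested and 14 did not (Ccnb1, Ccnb2, Cdk1, Ccne1, Plk1, Aurkb, Bub1, Melk, Ube2c, Birc5, Cenpe, Tpx2, Ect2 and E2f1). Of the 27, 0 passed an adjusted p of 0.05 in edgeR's quasi-likelihood test, where 0.353% of all tested genes passed (0.24% higher and 0.114% lower in the knockout-labelled group). Also by edgeR, 1 member, Mki67, had an unadjusted p under 0.05, against 6.86% of all tested genes, and DESeq2 called 0 members (0.707% of all tested genes), as did limma voom (0.335%) and voom with quality weights (0.545%). The groups did not overlap in 0 of the members, against 1.78% of all tested genes. Without wild-type-labelled library 1 and knockout-labelled library 4 (the 2 libraries in what follows), 0 of 25 tested members passed, where 0.521% of all tested genes passed, and 0 had an unadjusted p under 0.05, against 7.8% of all. With wild-type-labelled library 3 and knockout-labelled library 2 left out too, 0 of 25 passed, against 0.377% of all, and 1 member, Ccne2, had an unadjusted p under 0.05, against 4.92% of all.

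**Figure D1:**
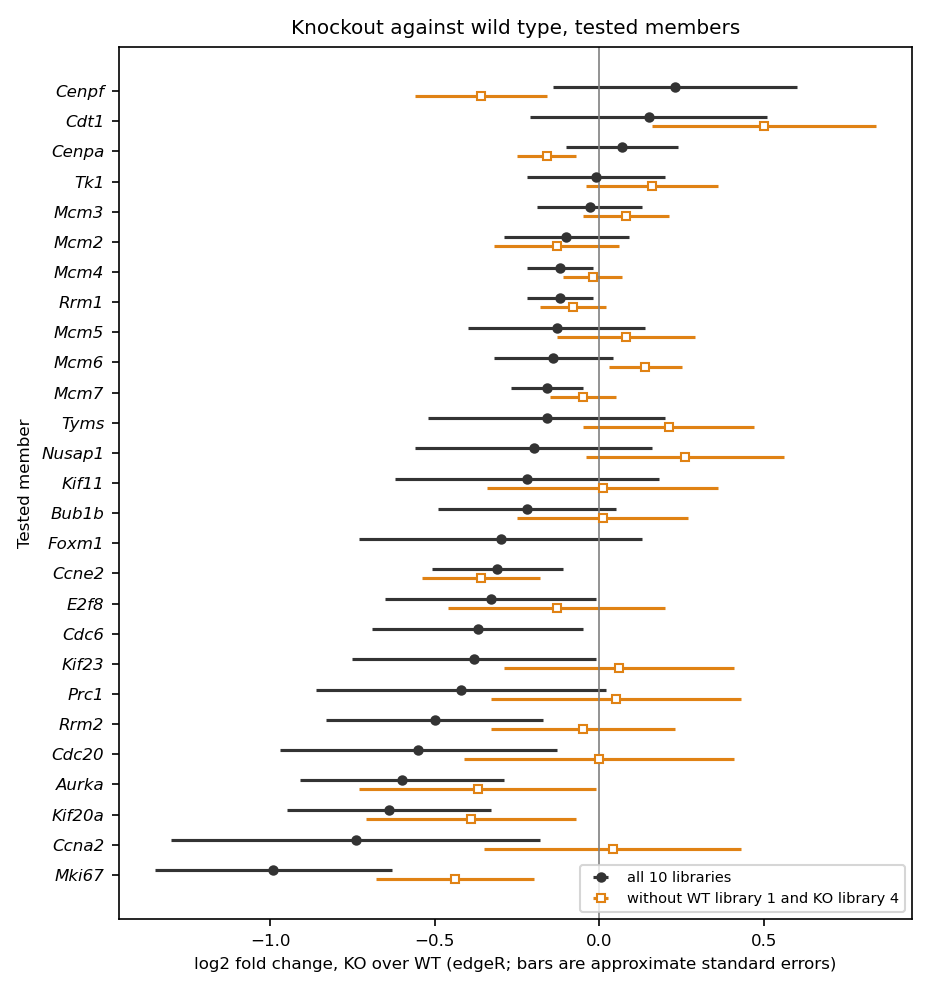
Log2 fold change (x axis, knockout over wild type by the labels) of each of the 27 tested members (y axis), with all 10 libraries (filled circles) and without wild-type library 1 and knockout library 4 (open squares, 25 members), and bars giving approximate standard errors. With all libraries 24 of the 27 points lie below 0, and without those libraries 13 of 25 do.

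The fold changes of the members lay mostly below 0 with all libraries, and were close to even without wild-type-labelled library 1 and knockout-labelled library 4. With all 10 libraries, 24 of the 27 tested members had a log2 fold change below 0 (knockout lower), a share of 88.9% against 53.4% of all tested genes. The median of the members was -0.221, beside -0.014 for all tested genes. Without wild-type-labelled library 1 the median was -0.031, with 15 members below and 12 above 0. Without that library and knockout-labelled library 4 it was -0.002, with 13 below and 12 above. By phase, the 14 tested G1 and S phase members had a median of -0.13 (-0.50 to 0.15) and the 13 tested mitosis members one of -0.38 (-0.99 to 0.23). Without the same 2 libraries these medians were -0.02 and 0.00. With wild-type-labelled library 3 and knockout-labelled library 2 left out too, they were -0.02 and -0.31. In that set, 17 of 25 members lay below 0 (68.0% against 50.2% of all tested genes), and 10 of 12 mitosis members did.

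**Figure D2:**
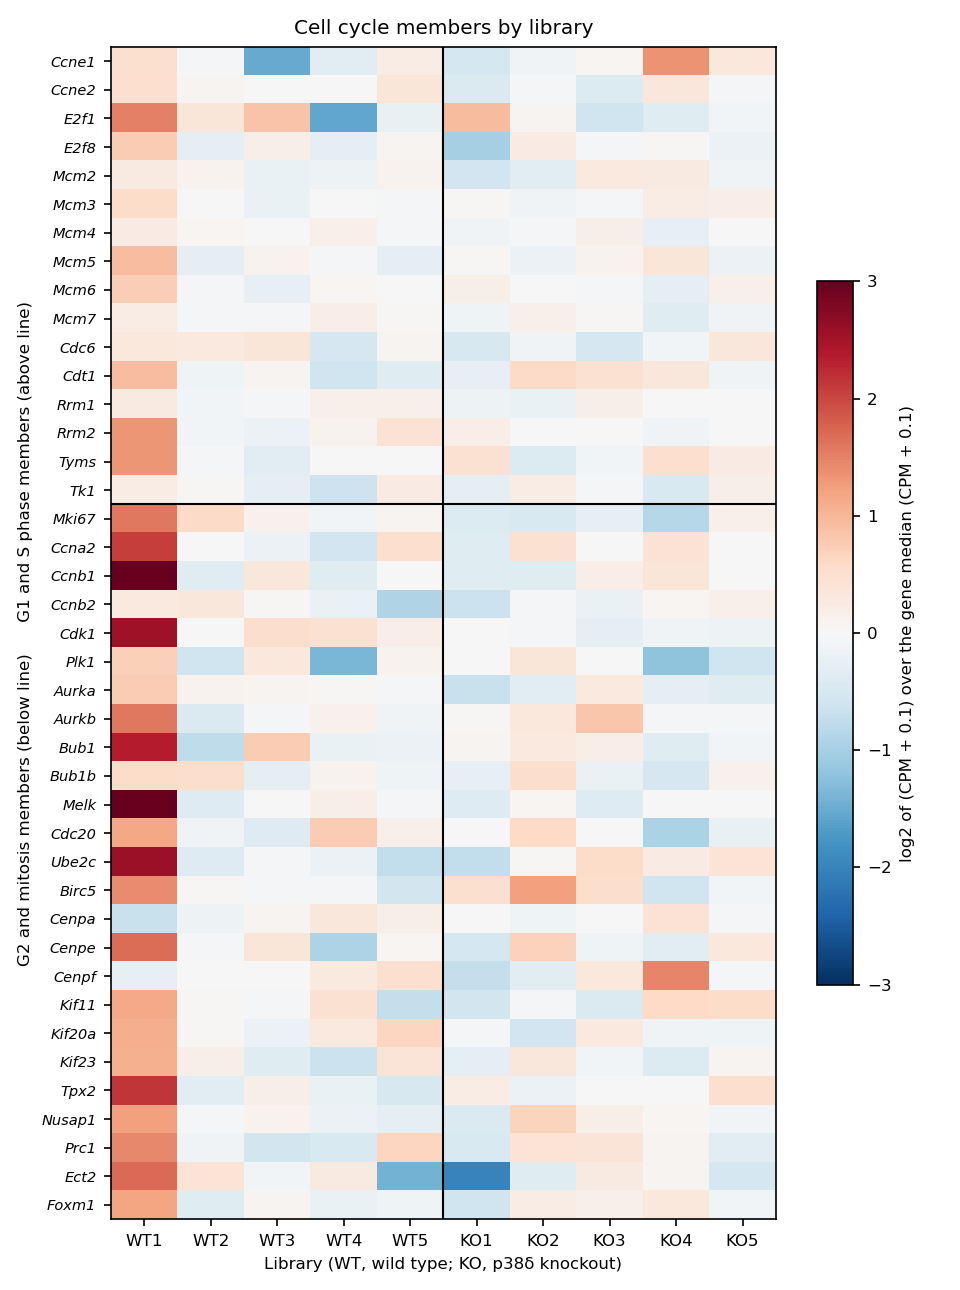
Level of each of the 41 members (rows) in each library (columns), as log2 of CPM plus 0.1 over the median of the gene plus 0.1, with G1 and S phase members above the line and mitosis members below it. Red is above and blue below the median of the gene, and wild-type library 1 is the highest library in 34 of the 41 rows.

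Most members were highest in the same library. Wild-type-labelled library 1 was the highest of the 10 libraries in 34 of the 41 members (82.9%), where it was highest in 27.8% of all tested genes. It was highest in 12 of the 16 G1 and S phase members and in 22 of the 25 mitosis members, all but Ccnb2, Cenpa and Cenpf. In 12 members its CPM, the count relative to the scaled library total, was at least 2 times that of the next library. Knockout-labelled library 4 was the highest in 3 members (Ccne1, Cenpf and Cenpa), 7.32% against 16.6% of all tested genes. It was the lowest in 7 (Mki67, Cdc20, Bub1b, Birc5, Mcm4, Mcm6 and Mcm7), 17.1% against 17.8% of all tested genes. Summed over the 23 mitosis members other than Cenpa and Cenpf, wild-type-labelled libraries 1 to 5 held 30.7, 10.4, 9.11, 9.09 and 9.34 CPM, and knockout-labelled libraries 1 to 5 7.0, 11.3, 9.57, 8.08 and 9.58 CPM. The group means were 13.7 ± 9.49 and 9.11 ± 1.64 CPM (SD, n = 5 each), and 9.47 ± 0.598 and 9.36 ± 1.77 without the 2 libraries (n = 4 each). The groups overlapped, and the difference lay in wild-type-labelled library 1.

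The same library was high in markers of several other cell types. Its summed macrophage markers were at 441 CPM against 98.9 to 154 in the other 9 libraries, with all 7 of 7 markers highest there and none at 0. Its fibroblast markers were at 1458 CPM against 660 to 896, with 6 of 6 highest there. Its airway and alveolar epithelial markers were at 860 CPM, against 76.3 in wild-type-labelled library 3 and at most 0.876 in the other 8, with 7 of 7 highest there. Its mesothelial markers were at 95.8 CPM (12.4 to 34.0 in the others, 6 of 6 highest), and its atrial cardiomyocyte markers at 1309 CPM (34.8 to 281, 5 of 5 highest). Its B cell markers were at 50.1 CPM, beside 33.8 in knockout-labelled library 2, 6.68 in wild-type-labelled library 3 and at most 1.07 in the other 7. Endothelial markers did not all go one way there. Their sum was 499 CPM against 501 to 616 in the others, with 4 of 6 lowest there and Pecam1 highest, at 237 CPM. That rank of the sum rests on the scaling factor of the library. By counts over library totals alone, the endothelial sum was highest there. The part of these cells in the members' levels was not tested.

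T cell and thymocyte markers were highest in knockout-labelled library 2, at 20.2 CPM with 9 of 10 highest there. They were next highest in wild-type-labelled library 1, at 4.79 CPM, and at 0.666 to 1.95 CPM in the other 8. Neutrophil markers were at 17.7 CPM in knockout-labelled library 2, 12.7 in wild-type-labelled library 1 and 1.65 to 7.27 in the others. Of the 5 markers, 4 were highest in knockout-labelled library 2 and only 1, S100a9, in wild-type-labelled library 1. S100a9 alone made up 8.41 of the 12.7 CPM there. Erythroid markers were at 4.04 CPM in wild-type-labelled library 1 and 0.643 to 2.85 in the others, with only 2 of 7 highest in wild-type-labelled library 1. Knockout-labelled library 2 held 11.3 CPM of the 23 summed mitosis members, the highest of its group, and 0.986 CPM of Mki67. Wild-type-labelled library 3, with 6.68 CPM of B cell markers, held 9.11 CPM of the 23 members. A link between lymphocyte markers and the members was not tested. The labelled tissue was present in all 10 libraries: the 6 cardiomyocyte markers summed to between 14019 and 43583 CPM, lowest in wild-type-labelled library 1 and highest in knockout-labelled library 4. By counts over library totals alone, wild-type-labelled library 1 was not the lowest.

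**Figure D3:**
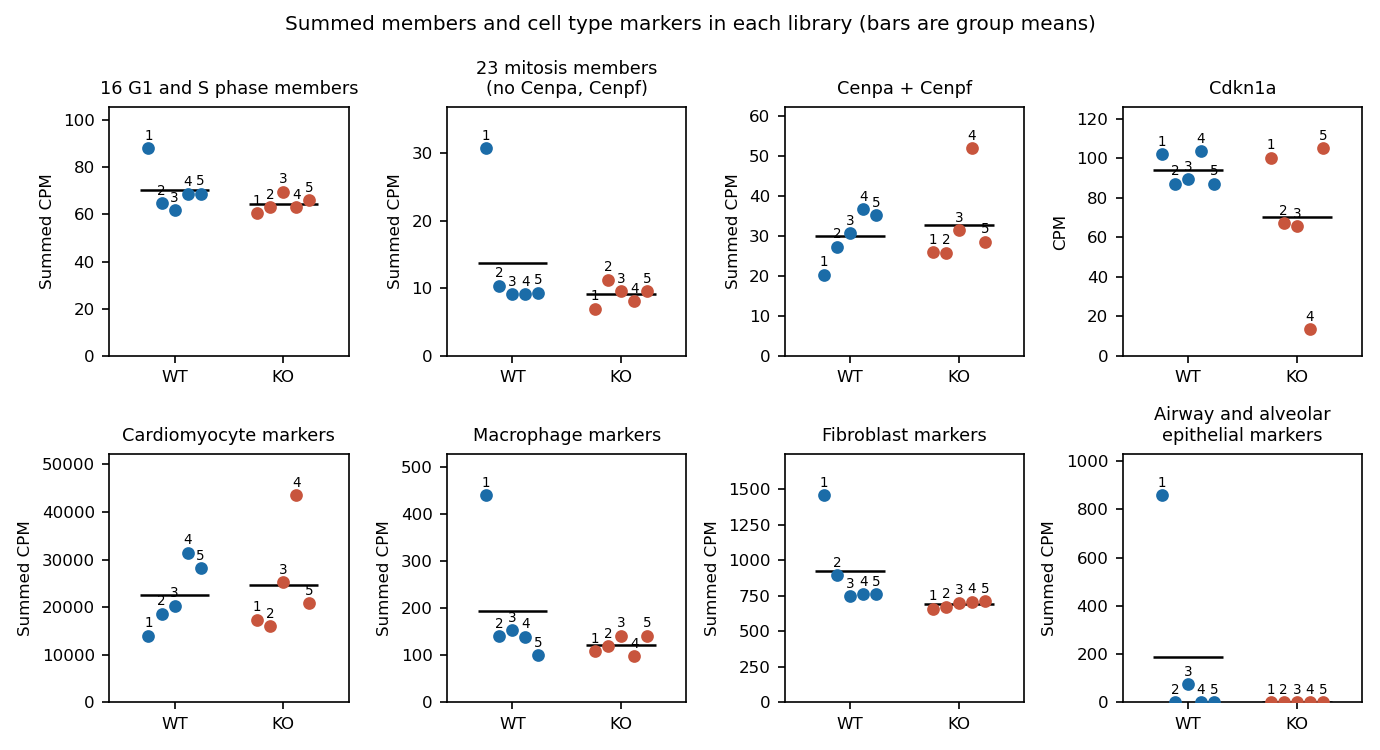
Summed CPM (y axes, linear and from 0) of 3 groups of members, CPM of Cdkn1a, and summed CPM of 4 sets of cell type markers, by labelled genotype (x axes), with each point a library numbered 1 to 5 and bars the group means. Wild-type library 1 is the highest in the panels of the 16 G1 and S phase members, the 23 mitosis members and the macrophage, fibroblast and airway markers. It is the lowest in those of Cenpa plus Cenpf and the cardiomyocyte markers, where knockout library 4 is the highest. That lowest rank depends on the scaling factor of wild-type library 1, and counts over library totals alone do not give it.

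Mki67 (ENSMUSG00000031004, chromosome 7, 135291513 to 135318299, GRCm39), the coat protein of mitotic chromosomes used as a marker of cycling cells, had the smallest p of the tested members. It was at 4.35, 2.10, 1.52, 1.3 and 1.47 CPM in wild-type-labelled libraries 1 to 5 and at 1.02, 0.986, 1.14, 0.714 and 1.56 CPM in knockout-labelled libraries 1 to 5. The groups overlapped only through knockout-labelled library 5, which lay above 3 of the wild-type-labelled libraries. The means were 2.15 ± 1.27 and 1.08 ± 0.307 CPM (SD, n = 5 each). The log2 fold change was -0.99 (standard error 0.36), and it did not pass by edgeR (unadjusted p = 0.0169, adjusted p = 0.642). Without wild-type-labelled library 1 it was -0.56 (adjusted p = 0.807), and without knockout-labelled library 4 as well it was -0.44 (standard error 0.24, adjusted p = 0.679).

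Cyclin B1 and Cdk1, which together form the kinase of mitotic entry, were near 0 counts in 9 of 10 hearts. Ccnb1 held 79 counts in wild-type-labelled library 1 and 0 to 2 in each of the other 9. Cdk1 held 43 counts there and 1 to 5 in the others. Ccnb2, the Golgi-associated cyclin B2, held 11, 10, 6, 3 and 2 counts in the wild-type-labelled and 2, 5, 3, 6 and 7 in the knockout-labelled libraries, and was not high in library 1 in the way of Ccnb1 and Cdk1. With no filter on low counts, 0 of 41 members passed, against 0.155% of all genes in that fit. Cdk1, Melk and Mki67 had an unadjusted p under 0.05 in edgeR there, against 5.53% of all genes, and the smallest adjusted p of any member was 0.645.

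Cyclin A2 acts from S phase to early mitosis, and the E cyclins act at the start of S phase. Ccna2 was at 1.74 CPM in wild-type-labelled library 1, at 0.192 to 0.515 in the other wild-type-labelled libraries and at 0.236 to 0.493 in the knockout-labelled ones. Its log2 fold change was -0.74 (standard error 0.56), and 0.04 without the 2 libraries. Ccne2 was at 3.32, 2.48, 2.30, 2.36 and 3.04 CPM in wild-type-labelled libraries 1 to 5 and at 1.69, 2.25, 1.71, 2.98 and 2.22 CPM in knockout-labelled libraries 1 to 5. Its log2 fold change moved little without the 2 libraries, from -0.31 (standard error 0.20, edgeR adjusted p = 0.76) with all to -0.36 (0.18, adjusted p = 0.655) without. Ccne1 was not tested and was highest in knockout-labelled library 4, with 26 counts there against 1 to 19 in the others.

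**Figure D4:**
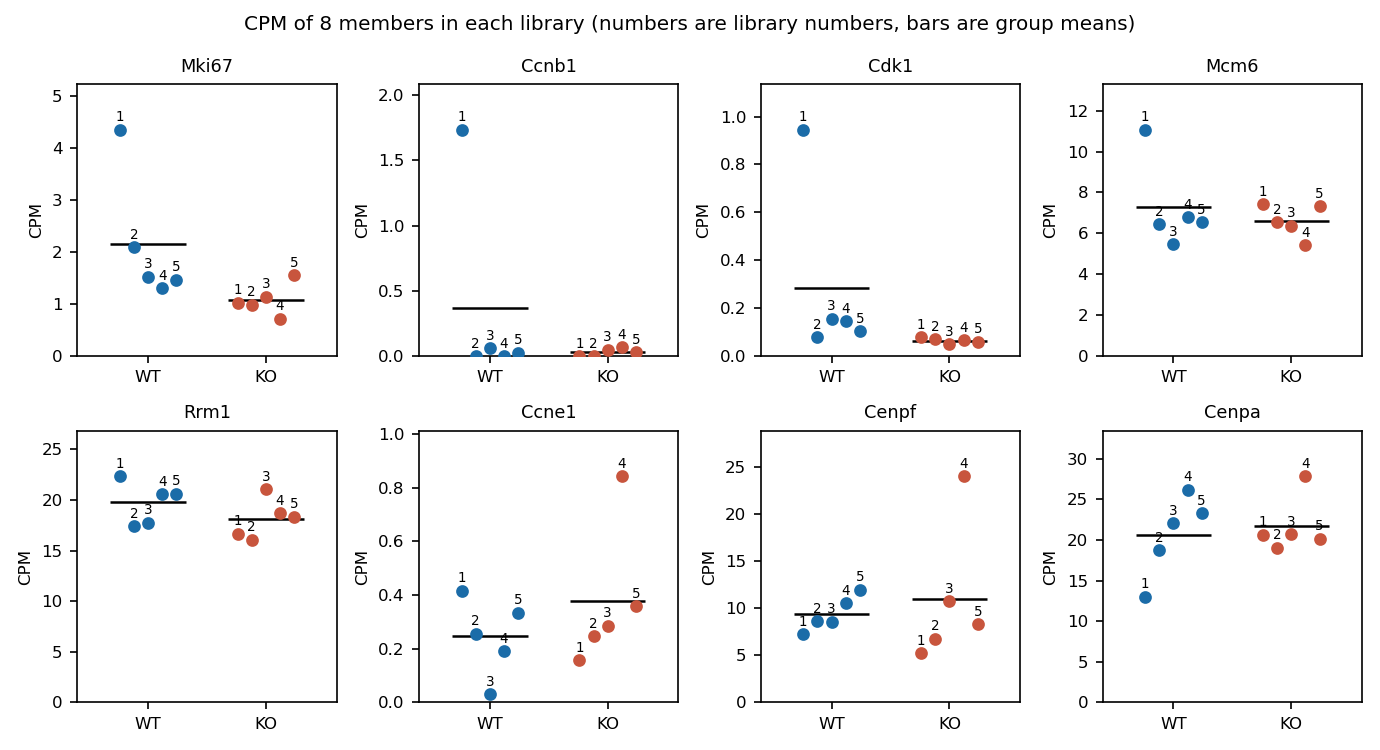
CPM (y axes, linear and from 0) of 8 members in each library by labelled genotype (x axes), with points numbered by library and bars giving group means. Mki67, Ccnb1, Cdk1 and Mcm6 are highest in wild-type library 1, Rrm1 is highest there by a small margin, and Ccne1, Cenpf and Cenpa are highest in knockout library 4.

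All 6 mitotic kinases were highest in wild-type-labelled library 1. Melk, a kinase of dividing progenitor and tumour cells, held 74 counts there and 0 or 1 in each of the other 9. Bub1, a kinase of the spindle checkpoint, held 35 counts against 0 to 6, Aurkb, the kinase of the chromosomal passenger complex, 14 against 0 to 3, and Plk1, a kinase of centrosome maturation and mitotic exit, 24 against 1 to 12. Bub1b, a second checkpoint protein, did not share the excess. It was at 2.0, 1.94, 1.09, 1.44 and 1.21 CPM in the wild-type-labelled and 1.10, 1.97, 1.14, 0.908 and 1.47 CPM in the knockout-labelled libraries. Aurka, the centrosomal kinase, was at 0.703 CPM in wild-type-labelled library 1, 0.360 to 0.409 in the other wild-type-labelled libraries and 0.197 to 0.476 in the knockout-labelled ones. Its log2 fold change was -0.60 (standard error 0.31, edgeR adjusted p = 0.74), and -0.37 (0.36) without the 2 libraries.

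The 2 members that act with the anaphase-promoting complex, which degrades cyclin B, were also highest in wild-type-labelled library 1. Ube2c held 41 counts in wild-type-labelled library 1 and 0 to 4 in the others. Cdc20, the activator of the complex, was at 1.19 CPM there, at 0.342 to 0.866 in the other wild-type-labelled libraries and at 0.195 to 0.775 in the knockout-labelled ones. Its log2 fold change went from -0.55 (standard error 0.42) to 0.00 (0.41) without the 2 libraries.

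The 7 spindle and cytokinesis members were all highest in wild-type-labelled library 1. Summed, they were at 11.1, 3.96, 3.51, 3.85 and 4.01 CPM in wild-type-labelled libraries 1 to 5 and at 2.79, 4.44, 4.19, 4.22 and 4.07 CPM in knockout-labelled libraries 1 to 5. Tpx2, which starts microtubule growth near chromosomes, held 74 counts in wild-type-labelled library 1 and 5 to 15 in the others. Ect2, the exchange factor that sets the cleavage furrow, held 55 against 0 to 17. The 5 tested members were Kif11, the motor that separates spindle poles, Kif23, Kif20a and Prc1 of the central spindle, and Nusap1, which bundles spindle microtubules. Kif11 was at 1.76 CPM in wild-type-labelled library 1, 1.17 in knockout-labelled library 4 and 0.412 to 1.14 in the others. Nusap1 was at 2.11 CPM in wild-type-labelled library 1, against 0.590 to 1.37 in the other 9, and Kif23 at 1.16 against 0.289 to 0.695. The tested spindle genes were thus highest in the same library as Tpx2 and Ect2. Their log2 fold changes were -0.64 to -0.20 with all libraries and -0.39 to 0.26 without the 2. Kif20a had the most negative of these, -0.64 (standard error 0.31, edgeR adjusted p = 0.722), and -0.39 (0.32) without the 2 libraries.

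Of the 4 centromere and kinetochore members, Cenpe and Birc5 were highest in wild-type-labelled library 1 and Cenpa and Cenpf were not. Cenpe, the kinetochore motor, held 49 counts in wild-type-labelled library 1 and 2 to 14 in the others, and Birc5, survivin of the chromosomal passenger complex, held 32 against 3 to 17. Cenpa (ENSMUSG00000029177, chromosome 5, 30824121 to 30842921) was lowest in that library. It was at 13.0, 18.7, 22.1, 26.2 and 23.3 CPM in wild-type-labelled libraries 1 to 5 and at 20.7, 19.1, 20.7, 27.8 and 20.2 CPM in knockout-labelled libraries 1 to 5. The groups overlapped, and knockout-labelled library 4 was the highest. The log2 fold change was 0.07 (standard error 0.17, edgeR adjusted p = 0.947), and -0.16 (0.09, adjusted p = 0.723) without the 2 libraries.

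Cenpf (ENSMUSG00000026605, chromosome 1, 189372752 to 189420315) was also highest in knockout-labelled library 4, and lowest in knockout-labelled library 1. It was at 7.25, 8.59, 8.58, 10.5 and 12.0 CPM in wild-type-labelled libraries 1 to 5 and at 5.23, 6.76, 10.7, 24 and 8.33 CPM in knockout-labelled libraries 1 to 5. The other libraries of the groups overlapped. The log2 fold change was 0.23 (standard error 0.37, edgeR adjusted p = 0.913) and turned to -0.36 (0.20, adjusted p = 0.709) without the 2 libraries. The 6 cardiomyocyte markers, taken as a sum, ran in much the same order over the libraries as Cenpa and Cenpf. They summed to 14019, 18635, 20322, 31439 and 28209 CPM in wild-type-labelled libraries 1 to 5 and to 17390, 15989, 25248, 43583 and 20827 CPM in knockout-labelled libraries 1 to 5, with knockout-labelled library 4 highest in 5 of 6 and none at 0. The exception, Tnnt2, was at 7349 CPM there and highest in wild-type-labelled library 4, at 9603 CPM. The part of the cardiomyocyte markers in the levels of Cenpa and Cenpf was not tested.

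The 3 transcription factors were low and highest in wild-type-labelled library 1. E2f1, an activator of S phase genes, held 34 counts there and 0 to 14 in the others and was not tested. Foxm1, the activator of mitosis genes, was at 0.791 CPM there and 0.157 to 0.389 in the others, with a log2 fold change of -0.30 (standard error 0.43). Like Cdc6, it was below the filter without the 2 libraries. E2f8, a repressor of E2F targets late in S phase, was at 1.32 CPM there and 0.315 to 0.880 in the others, with a log2 fold change of -0.33 (standard error 0.32), and -0.13 (0.33) without the 2 libraries.

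Origin licensing genes load and form the Mcm helicase, and all 8 were tested. Summed, the 6 Mcm subunits with Cdc6 and Cdt1, which load the helicase, were at 52.3, 39.3, 36.9, 41.5 and 38.8 CPM in wild-type-labelled libraries 1 to 5 and at 36.9, 38.9, 41.5, 35.7 and 39.4 CPM in knockout-labelled libraries 1 to 5. Apart from wild-type-labelled library 1, the libraries of the groups overlapped. Mcm6 was at 11.1 CPM in that library, against 5.42 to 7.44 in the other 9. Mcm4 was at 14.0, 12.2, 11.5, 12.9 and 11.2 CPM in the wild-type-labelled and 10.9, 11.2, 13.1, 9.89 and 11.9 CPM in the knockout-labelled libraries. Mcm3 was at 5.47 CPM in wild-type-labelled library 1 and 3.23 to 4.31 in the others, and Mcm5 at 2.83 against 1.18 to 1.88. Mcm2 was highest in knockout-labelled library 3, at 4.62 CPM, and Cdc6 in wild-type-labelled library 3, at 0.435 CPM. Cdt1 was at 1.01 CPM in wild-type-labelled library 1 and 0.289 to 0.775 in the others. The log2 fold changes of the 8 genes ranged from -0.37 in Cdc6 (standard error 0.32) to 0.15 in Cdt1 (0.36). Among the 7 tested without the 2 libraries they ranged from -0.13 in Mcm2 to 0.50 in Cdt1 (0.34, edgeR adjusted p = 0.763).

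Of the 4 nucleotide supply genes, Rrm1 encodes the large subunit of ribonucleotide reductase, which makes deoxynucleotides. Rrm1 was at 22.3, 17.4, 17.8, 20.6 and 20.6 CPM in wild-type-labelled libraries 1 to 5 and at 16.7, 16.1, 21, 18.7 and 18.4 CPM in knockout-labelled libraries 1 to 5 (19.8 ± 2.09 and 18.2 ± 1.95, SD, n = 5 each). Rrm2, the small subunit made in S phase, was at 1.58 CPM in wild-type-labelled library 1 and 0.497 to 0.798 in the other 9. Tyms, which makes thymidylate, was at 2.59 CPM there and 0.704 to 1.43 in the others. Tk1, the thymidine kinase of S phase, had no such excess, and its groups overlapped, with means of 2.71 ± 0.666 and 2.71 ± 0.549 CPM (SD, n = 5 each). The log2 fold changes of the 4 were -0.50 (Rrm2, standard error 0.33) to -0.01 (Tk1, 0.21), and -0.08 to 0.21 without the 2 libraries.

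Per kilobase of canonical transcript, the levels of members covered a wide range. Cenpa had the highest median over the 10 libraries, at 14.1 CPM per kilobase, followed by Rrm1 at 3.91, Mcm7 at 3.78, Mcm4 at 2.27, Mcm6 at 2.21 and Tk1 at 1.95. Cenpf ranked 8, at 0.766. The lowest medians were those of Cdk1 at 0.0178, Ccnb1 at 0.0110 and Melk at 0.0102 CPM per kilobase. Mki67, at 0.135, ranked 23 of 41. Neighbours such as Rrm1 and Mcm7, or Ccnb1 and Melk, overlapped in their values over libraries. Some members overlap another gene in the annotation: Cdc20 overlaps Elovl1, Tk1 overlaps Afmid and Syngr2, Ube2c overlaps Tnnc2, Ccna2 overlaps Exosc9, and Mcm7 overlaps Cops6 and Ap4m1, and without a stated strand setting their reads cannot be fully told apart.

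Other genes of the pathway, in 5 lists, gave 0 calls by edgeR, where 0.353% of all tested genes passed. DESeq2 called 1 of them, Pkmyt1, where 0.707% of all tested genes passed. For the unadjusted p under 0.05 by edgeR given for these lists, the share of all tested genes was 6.86%. Of 57 other mitosis genes, 25 were tested, with 7 log2 fold changes above and 18 below 0 and a median of -0.29, and -0.04 over 24 genes without the 2 libraries. Wild-type-labelled library 1 was the highest in 45 of the 57, where it was highest in 27.8% of all tested genes. The only 4 with an unadjusted p under 0.05 by edgeR were Ncapd2 of condensin, 0.31 (standard error 0.11, edgeR adjusted p = 0.642), Bub3 of the spindle checkpoint, -0.14 (0.06, adjusted p = 0.706), Incenp of the chromosomal passenger complex, -0.46 (0.19, adjusted p = 0.699), and Arhgap11a, a GTPase-activating protein, -0.59 (0.22, adjusted p = 0.665). Of 32 other S phase genes, 28 were tested, with 11 above and 17 below 0 and a median of -0.02. Of these, 1, Chaf1a, had an unadjusted p under 0.05 by edgeR. Wild-type-labelled library 1 was the highest in only 13 of the 32. Their sum there, 138 CPM, lay within the 125 to 146 CPM of the other libraries. The 3 with the smallest p were Prim1, the primase, at -0.59, Chaf1a of chromatin assembly at -0.41 and Uhrf1 of maintenance methylation at -0.93, with edgeR adjusted p from 0.714 to 0.724. Chaf1a and Uhrf1 lie on chromosome 17.

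The list of the G2 checkpoint and p53 arrest, which also holds Cdc25a, Cdc25b, Cdc25c and Mdm2, gave 1 gene near the threshold. Of its 15 genes, 14 were tested, 3 above and 11 below 0, with a median of -0.08. Pkmyt1 (ENSMUSG00000023908, chromosome 17, 23945254 to 23955710), which encodes an inhibitory kinase of Cdk1, was at 1.91, 1.36, 0.870, 1.3 and 1.11 CPM in wild-type-labelled libraries 1 to 5 and at 0.669, 0.282, 0.333, 0.487 and 0.299 CPM in knockout-labelled libraries 1 to 5. The groups did not overlap, with means of 1.31 ± 0.387 and 0.414 ± 0.164 CPM (SD, n = 5 each). The log2 fold change was -1.66 (standard error 0.31, adjusted p = 0.0588 by edgeR), just short of the threshold. DESeq2 called it (adjusted p = 7.72e-04), as did voom with quality weights (adjusted p = 0.0281) and edgeR without knockout-labelled library 1 (adjusted p = 0.0384). It was not called by plain limma voom (adjusted p = 0.059), and with each library left out in turn the edgeR adjusted p ran from 0.0384 to 0.204. Without the 2 libraries the log2 fold change was -1.55 (adjusted p = 0.0617), and with 4 libraries left out -1.53 (adjusted p = 0.251). Pkmyt1 lies 5.04 Mb from Mapk13, and an effect of sequence linked to the deleted gene cannot be told apart from one of the deletion. With all 10 libraries, Chek1 (-0.82, standard error 0.43), Gadd45g (-0.33, 0.22) and Ccng2 (-0.14, 0.08) were the other 3 with the smallest p in this list. Each had an edgeR adjusted p of 0.74 or more. Without the 2 libraries, Gadd45a came after Pkmyt1 by p and was not called, at -0.45 (0.12, edgeR adjusted p = 0.196). With all libraries Gadd45a was at -0.13 (0.22).

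Cdkn1a (ENSMUSG00000023067, chromosome 17, 29309936 to 29319701), which encodes p21, lies 0.32 Mb from Mapk13. It was at 102, 87.2, 89.7, 104 and 87.2 CPM in wild-type-labelled libraries 1 to 5 and at 100, 67.4, 65.9, 13.7 and 105 CPM in knockout-labelled libraries 1 to 5. Knockout-labelled library 4 was far below the other 9, and the groups overlapped. The log2 fold change was -0.42 (standard error 0.40, edgeR adjusted p = 0.849), and -0.11 (0.16, adjusted p = 0.898) without the 2 libraries. In knockout-labelled library 4, the 23 summed mitosis members were at 8.08 CPM, against 7.0 to 11.3 in the others of its group. Mki67 was at its lowest there, 0.714 CPM, and Ccne1, Cenpf, Cenpa and Ccnd2 were at their highest. A link of these levels to Cdkn1a was not tested. All 5 tested Cdk inhibitors were below 0, with a median of -0.07, among them Cdkn1b at -0.07, Cdkn1c at -0.18 and Cdkn2c at -0.06, and 0 had an unadjusted p under 0.05 by edgeR or DESeq2.

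The G1 cyclins, pocket proteins and E2F partners were even in direction. Of 23 genes 21 were tested, with 11 above and 10 below 0 and a median of 0.00, and 0 had an unadjusted p under 0.05 by edgeR or DESeq2. Ccnd2, cyclin D2, was at 126 CPM in knockout-labelled library 4 and 54.6 to 78.6 in the other 9, with a log2 fold change of 0.18 (standard error 0.21), and -0.02 (0.08) without the 2 libraries. Rb1, the retinoblastoma protein, was at -0.07 (0.08), Lin9 of MuvB at -0.28 (0.18) and the repressor E2f6 at 0.14 (0.09), with edgeR adjusted p of 0.76 or more for all 4.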

How the data were processed

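Bulk RNA of whole hearts was sequenced in 5 wild-type-labelled and 5 knockout-labelled samples. The authors deposited a table of expected counts, which held whole numbers only. STAR 2.5.2 aligned the reads to GRCm39, per the labels' protocols, and the submitters' processing notes name RSEM 1.3.0. RSEM divides reads that match several genes, so copies and overlapping genes are uncertain. For the annotation release and strand setting, nothing is given in the sources used here. GENCODE named 78168 of 78298 identifiers.

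edgeR 4.0.16 in R 4.3.3 was used with TMM factors, its expression filter with a minimum count of 10 (16700 genes kept), robust quasi-likelihood fits, no covariate and Benjamini-Hochberg adjustment over all tested genes at 0.05. Standard errors are the absolute log2 fold change over the square root of F. CPM used TMM factors. Library totals were 21403189 to 40627138, which limits precision for genes of few counts, and counting error only is covered by such totals. All pairs of libraries within a group differed by more than sampling noise (chi-square per degree of freedom 9.47 to 179), so none was merged. The labels do not say how the samples of a group were obtained beyond the animal groups, so a p-value measures only how these samples spread.

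Alternatives were other scalings, DESeq2 1.42.0, limma 3.58.1 voom (plain or with quality weights), other filters, mitochondrially encoded genes left out, and libraries left out. The set without wild-type-labelled libraries 1 and 3 and knockout-labelled libraries 2 and 4 was chosen after seeing the data. The test was checked on simulated counts. Members, gene lists and tests were chosen with earlier results of these data known. The genes named are the 41 members, Mapk13, Cdkn1a, and up to 4 tested genes of each pathway list by p. Some genes that the rule or the lists reached are not reported here. Gadd45a, Top2a and Nek2 were chosen after their values were seen. Promoter windows came from GRCm39 and the GENCODE annotation.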

Additional observations from a re-analysis of the deposited data

Results flagged for a closer look

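In groups of 5 libraries, a value was picked out where its gap to the nearest of the others, over the range of the group, was above Dixon's critical value of 0.71. Chance picks about 1 in 20 groups only where values are independent and normally spread. The members share the same libraries and many have few counts, so that rate cannot be held against them. Of 82 groups of member values 20 were picked, 19 of them for wild-type-labelled library 1 as the highest. Among mitosis members the ratio there was 0.739 for Mki67, 0.791 for Ccna2, 0.964 for Ccnb1, 0.909 for Cdk1, 0.857 for Aurka, 0.844 for Aurkb, 0.757 for Bub1, 0.97 for Melk, 0.931 for Ube2c, 0.831 for Birc5, 0.718 for Cenpe, 0.888 for Tpx2, 0.839 for Nusap1 and 0.819 for Foxm1. Among G1 and S phase members it was 0.776 for Mcm3, 0.772 for Mcm5, 0.765 for Mcm6, 0.723 for Rrm2 and 0.874 for Tyms. The summed G1 and S phase members gave 0.735 and the 23 summed mitosis members without Cenpa and Cenpf gave 0.939, both for the same library.

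In the knockout-labelled group, library 4 was the highest in Cenpa with a ratio of 0.811. Of the other named genes, Ccnd2 was picked for wild-type-labelled library 1 (0.732) and for knockout-labelled library 4 (0.823), and E2f6 (0.764) for knockout-labelled library 1.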

How the results depend on the processing

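The count of members past the threshold was 0 under every alternative run. Of all genes, 59 passed in edgeR, 118 in DESeq2 and 91 with voom quality weights, and 47 to 75 with each library left out in turn. The cause of the larger counts was not tested. The members' median log2 fold change, -0.221, stayed below 0 in the alternatives run, from -0.34 to -0.031 with each library left out and at -0.002 without wild-type-labelled library 1 and knockout-labelled library 4. It was -0.032 with voom quality weights, and -0.135 over 25 members with 4 libraries left out. Scaling by totals alone moved the median of all genes to -0.116 and that of the members to -0.38. Of 548 fold changes of single members under alternatives, 59 changed sign, none of them called, and 489 kept it. Summed members averaged 114 and 106 CPM (wild-type-labelled and knockout-labelled), 108 to 117 and 102 to 109 with a library left out, and 160 ± 20.6 and 150 ± 16.6 with mitochondrially encoded genes left out of the total, which makes the total smaller. The log2 fold change of Mapk13 turned from -1.76 to 2.13 without wild-type-labelled library 1, and ran from -2.06 to 2.13 over all libraries left out in turn. No paired analysis was possible because the labels give the groups no shared replicate numbers. At these depths 14 members had too few counts for a test.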

Other observations

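Top2a, the topoisomerase II isoform of dividing cells and a target of doxorubicin, and Nek2, a centrosomal kinase, were singled out after their values were seen. Top2a was at 4.46 CPM in wild-type-labelled library 1 and 0.048 to 0.866 CPM in the other 9 libraries. Its log2 fold change was -1.20 (standard error 0.96, edgeR adjusted p = 0.811) with all libraries. It turned to 1.04 (0.46, adjusted p = 0.801) without wild-type-labelled library 1. Nek2 was at 3.45 CPM there and 0.039 to 0.381 CPM in the others. Both were highest in the library that was highest in most mitosis members.

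The order of libraries by Cenpa plus Cenpf was also looked at after their values were seen. In 44 of the 45 pairs of libraries, the library with the higher sum of Cenpa and Cenpf also had the higher sum of the 6 cardiomyocyte markers. Cenpa alone did so in 40 pairs, Cenpf in 37 and Mki67 in 16. Of all tested genes, 1.55% did so in as many pairs as Cenpa or more, 5.19% for Cenpf and 77.7% for Mki67. With scaling by totals alone the sum of Cenpa and Cenpf did so in 43 pairs. The 10 libraries share 1 scaling factor each between these sums, and the same tissue gives both, and the pair of genes was chosen for this likeness, so the counts are only a description of these libraries.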
